A study of Mus musculus with 24 samples.

Results

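Transforming growth factor beta (TGF-beta) signalling was described in microglia through 10 genes: the ligand Tgfb1, the receptors Tgfbr1 and Tgfbr2, the effectors Smad2, Smad3 and Smad4, and the inhibitors Smad6, Smad7, Ski and Skil. They were chosen by name as the core of the pathway, and each symbol matched 1 of the 49315 gene identifiers in the count table. All 10 passed the filter on low counts, which kept 17579 genes. None of their exons overlaps an exon of another annotated gene (0 of 10), antisense genes included. The strand setting of the counting is not stated in the sources used here.

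RNA was sequenced in 24 libraries from mouse brain microglia, the CD11b+ cells of intermediate CD45 level in a flow sort. The 12 Cre+ libraries came from mice in which tamoxifen activates the recombinase creERT2, expressed from the Cx3cr1 locus, to delete Dicer1, the enzyme that cuts microRNA precursors. The 12 Cre- libraries came from mice without creERT2 that also received tamoxifen. Each genotype was sampled with 3 libraries in each of 4 states. Naive mice received tamoxifen only, labelled as given at the start. Demyelination mice were fed cuprizone, a copper chelator that kills oligodendrocytes, for 6 weeks. Remyelination mice had 6 weeks of cuprizone and then 6 weeks of normal diet. The demyelination groups and the first remyelination groups, called start below, had tamoxifen at the start, and the second remyelination groups, called peak below, had it in week 5 of cuprizone, at the peak. For demyelination and start, the series text puts the injection at 4-5 weeks and does not say whether this is an age or a week of the experiment. The recombinase acts in any cell that expresses Cx3cr1, and the libraries are bulk RNA of sorted cells, so fewer cells of a type and less RNA per cell cannot be told apart. The 3 libraries of a group are called biological replicates in the series text, the animals are not numbered in the labels, and p-values measure the spread between these libraries.

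TGF-beta is secreted in a latent form and, once released, binds TGFBR2, which recruits and phosphorylates TGFBR1. The activated TGFBR1 phosphorylates SMAD2 and SMAD3, which join SMAD4 and enter the nucleus. SMAD7 blocks the receptors, SMAD6 is a further inhibitory SMAD, and SKI and SKIL hold SMAD complexes in a repressed state on DNA. In the brain this pathway is known for keeping microglia in their resting, homeostatic identity.

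On GRCm38, with GENCODE M21 gene models, the ligand gene was Tgfb1 (ENSMUSG00000002603) at chr7:25687002-25705077 on the plus strand. The receptor genes were Tgfbr1 (ENSMUSG00000007613) at chr4:47353222-47414931 on the plus strand and Tgfbr2 (ENSMUSG00000032440) at chr9:116084293-116175360 on the minus strand. The effector genes were Smad2 (ENSMUSG00000024563) at chr18:76241580-76310963 on the plus strand, Smad3 (ENSMUSG00000032402) at chr9:63646767-63757994 on the minus strand and Smad4 (ENSMUSG00000024515) at chr18:73639009-73703780 on the minus strand. The inhibitor genes were Smad6 (ENSMUSG00000036867) at chr9:63953076-64022059 on the minus strand, Smad7 (ENSMUSG00000025880) at chr18:75367529-75395935 on the plus strand, Ski (ENSMUSG00000029050) at chr4:155154075-155222592 on the minus strand and Skil (ENSMUSG00000027660) at chr3:31095058-31122577 on the plus strand.

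Library totals in M counts were 19.48 to 44.53 in naive, 21.87 to 32.71 in demyelination, 8.87 to 12.56 in start and 8.94 to 12.09 in peak libraries. The start and the peak libraries each follow a naming scheme of their own and are shallower than the others, so in start remyelination against demyelination, and in peak against start, the state and the library set cannot be told apart. All 12 microglial markers were detected in every library, with Tmem119 at 1492 CPM or more. CPM are library-scaled counts (counts per M counts), with TMM scaling. Cx3cr1 was lower in every Cre+ library than in any Cre- library of the same state, and it was far lower in 3 of them: 227.1 CPM in naive Cre+ replicate 1, and 104.3 and 89.62 CPM in demyelination Cre+ replicates 1 and 3, against 2312 to 4571 CPM in the other Cre+ libraries of those states. Results of those states are given below with and without these 3 libraries where a call depends on them. Dicer1 was 18.55, 11.1 and 12.07 CPM in naive Cre- and 21.81, 22.06 and 24.31 CPM in naive Cre+, so Dicer1 rose by 0.72 in log2 units (SE 0.16, adjusted p = 0.00151). In the other 3 states Dicer1 was not called different between genotypes. The sources used here do not say which stretch of Dicer1 is deleted, and a count over the whole gene does not check the deletion, and the genotypes below are those of the labels.

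The genes differed widely in level per transcript length, which is the scale on which genes can be compared. The median over 24 libraries was 365.5 CPM per kb of exon for Tgfbr1. Tgfbr2 followed at 94.31 CPM per kb, Skil at 36.37 and Tgfb1 at 29.2. Ski stood at 19.7 CPM per kb and Smad3 at 17.7. Smad4, Smad7 and Smad2 had medians of 9.34, 8.08 and 7.61 CPM per kb, and their ranges over libraries overlapped. Smad6 was lowest, with a median of 2.09 CPM per kb and a range of 0.587 to 3.10. The lowest Tgfbr1 library (212.3 CPM per kb) exceeded the highest library of Tgfbr2 (130.8 CPM per kb), so on this scale Tgfbr1 stood above the other 9 genes in every library.

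**Figure D1:**
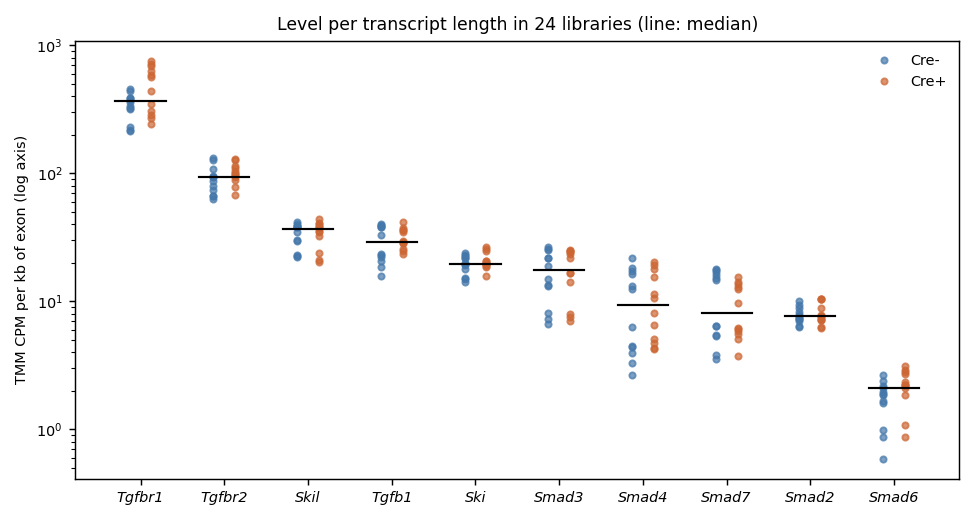
Level of each gene in TMM CPM per kb of annotated exon (log axis), 1 point per library, with Cre- and Cre+ libraries side by side and the median over 24 libraries as a line. Tgfbr1 lies between 212.3 and 758.5, and Smad6 between 0.587 and 3.10.

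In naive mice the pathway genes stood higher in Cre+ than in Cre- microglia. Of the 10, 7 were called higher and 0 lower, where 28.3% of all genes tested were called in either direction, 14.7% higher and 13.7% lower. All 10 estimates were positive, and their median was 0.43 on the log2 scale beside -0.01 for all genes. The comparison sets the labelled genotypes side by side without cuprizone. Astrocyte markers summed to 436.4 to 566.7 CPM in naive Cre- and 294.0 to 342.0 CPM in naive Cre+ libraries (3 of 9 called lower, median -0.70), and border-associated macrophage markers to 21.94 to 30.90 and 16.47 to 20.73 CPM (1 of 9 higher and 1 lower). No marker of these lists was at 0 in all libraries of a group, and their part in the naive differences was not tested. Calls use edgeR's quasi-likelihood test with Benjamini-Hochberg adjustment over all 17579 genes at 0.05.

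Tgfb1, the ligand, which microglia themselves express, was 111.3, 92.56 and 79.54 CPM in naive Cre- and 144.8, 145.9 and 143.5 CPM in naive Cre+. The groups did not overlap, and the Cre+ libraries lay closer together than the Cre- libraries. The rise was 1.53-fold (log2 0.62, SE 0.10, adjusted p = 8.98e-05).

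Tgfbr1, the type I receptor kinase that phosphorylates SMAD2 and SMAD3, was 2100, 2431 and 2990 CPM in naive Cre- and 4669, 4092 and 4502 CPM in naive Cre+. Every Cre+ library was above every Cre- library. The rise was 1.76-fold (log2 0.82, SE 0.15, adjusted p = 0.000196). Tgfbr2, the type II receptor that binds the ligand first, was 655.8, 610.8 and 711 CPM in Cre- and 860.7, 766.6 and 928 CPM in Cre+. These groups did not overlap either, but the rise was smaller, 1.29-fold (log2 0.37, SE 0.13, adjusted p = 0.0361), and the call did not hold without the 3 libraries of low Cx3cr1 (log2 0.33, adjusted p = 0.0903). It was lost in 9 of 14 alternative analyses, among them those without Cre- replicate 1 (0.0829), Cre- replicate 2 (0.135), Cre+ replicate 1 (0.0853) and Cre+ replicate 3 (0.143), in adjusted p of Tgfbr2.

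Among the effectors, Smad4, the shared partner of all receptor-activated SMADs, was called higher, and the 2 receptor-activated SMADs were not. Smad2 was 78.44, 82.25 and 88.38 CPM in naive Cre- and 91.21, 91.6 and 92.03 CPM in naive Cre+, groups that did not overlap, with a log2 difference of 0.14 (95% interval -0.05 to 0.33, adjusted p = 0.262). Smad3 was 83.32, 72.63 and 74.73 CPM against 78.62, 91.89 and 92.15 CPM, which overlapped, with a difference of 0.19 (95% interval -0.04 to 0.42, adjusted p = 0.203). Smad4 was 16.74, 12.14 and 9.897 CPM in Cre- and 15.72, 24.04 and 30 CPM in Cre+. Its groups overlapped, because Cre+ replicate 1 lay below Cre- replicate 1. The Smad4 rise was 1.82-fold (log2 0.87, SE 0.27, adjusted p = 0.0237), and the call was lost without Cre- replicate 2 (adjusted p = 0.0790), Cre- replicate 3 (0.0984), Cre+ replicate 2 (0.0572) or Cre+ replicate 3 (0.117).

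The inhibitors included the largest rise of the 10. Smad6, an inhibitory SMAD, was 5.16, 1.881 and 2.771 CPM in naive Cre- and 7.067, 9.255 and 9.923 CPM in naive Cre+, from 71 to 94 and 151 to 383 counts per library. All Cre+ libraries were above all Cre- libraries, and the rise was 2.76-fold (log2 1.46, SE 0.29, adjusted p = 0.000435). Smad6 is also expressed by endothelial cells. The summed level of their 12 markers lay between 674.5 and 749.2 CPM in the naive Cre- libraries and between 596.6 and 638.4 CPM in the naive Cre+ libraries, a sum led by Bsg and Slc2a1, while the median difference of the 11 tested was 0.37, with 1 called higher and 2 lower. Their part in the Smad6 rise was not tested. Smad7, which recruits ubiquitin ligases to the receptor, was 24.48, 15.9 and 17.09 CPM in Cre- and 24.9, 27.69 and 27.81 CPM in Cre+. The lowest Cre+ library was just above the highest Cre- library, and the rise of 1.41-fold (log2 0.50, SE 0.15, adjusted p = 0.0146) was lost without Cre- replicate 2 (0.102) or Cre- replicate 3 (0.0689).

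Ski, a co-repressor of SMAD complexes, was 126.9, 99.88 and 109 CPM in naive Cre- and 146.6, 143.2 and 136.2 CPM in naive Cre+. The groups did not overlap, and the rise was 1.27-fold (log2 0.34, SE 0.10, adjusted p = 0.00812). The Ski call was lost without Cre- replicate 2 (0.0629) and with a correction for GC content and length (log2 0.21, adjusted p = 0.138). Skil, its close relative, was 294.3, 288.3 and 366.9 CPM against 342.9, 335.3 and 378.1 CPM, with overlapping groups and a log2 difference of 0.15 (95% interval -0.06 to 0.37, adjusted p = 0.279). Tgfb1, Tgfbr1 and Smad6 kept their naive calls in all 14 alternative analyses. Without naive Cre- replicate 2, which had the lowest Smad6 and Smad7 of the group, 3 of the 10 members were called in place of 7.

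**Figure D2:**
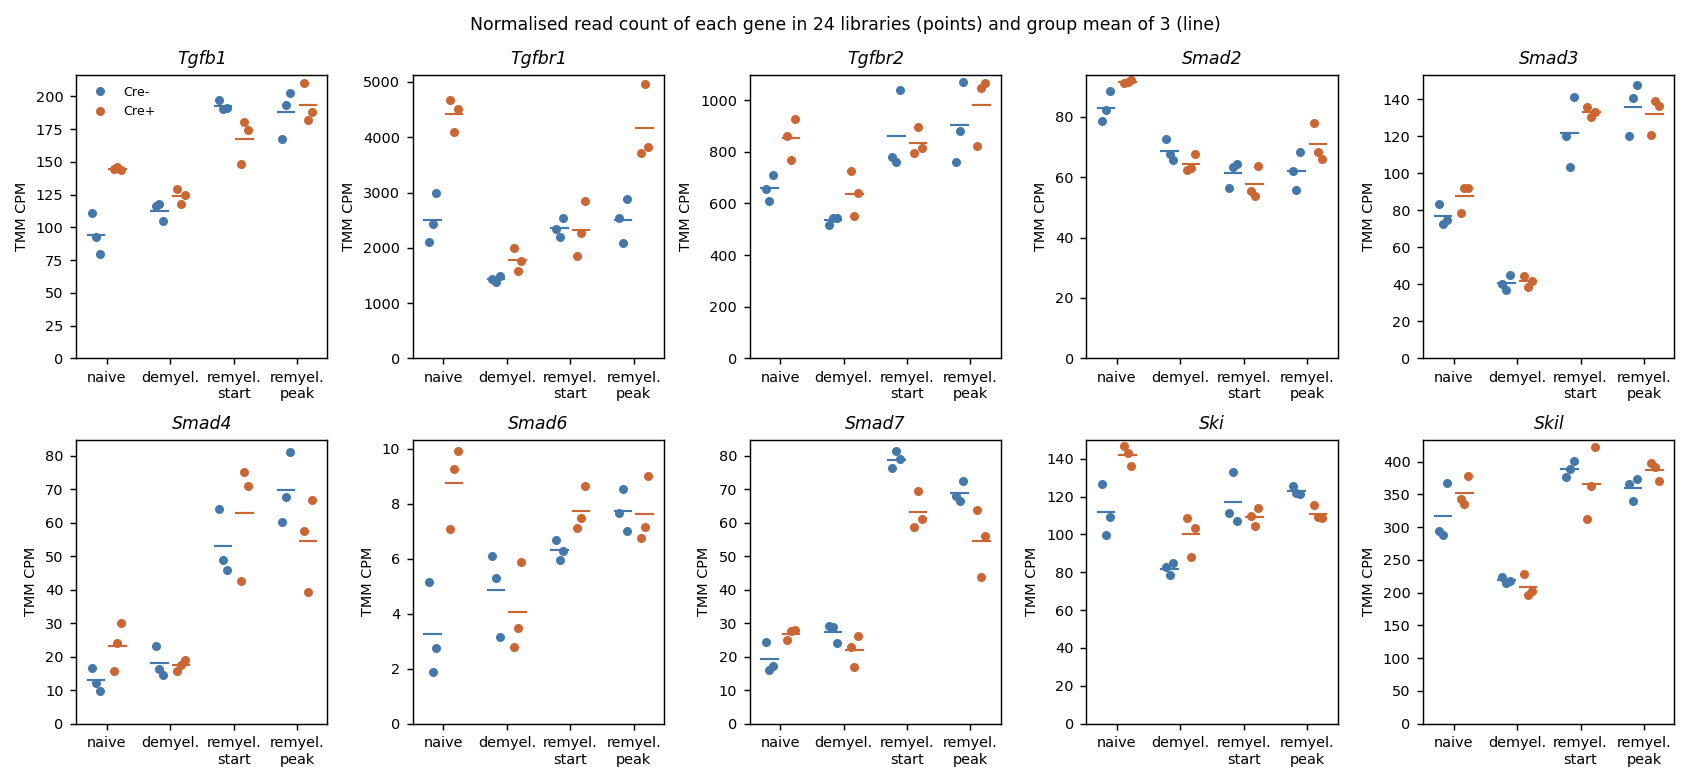
TMM CPM of each gene in the 24 libraries (points) with the mean of 3 libraries (line), by state and genotype, on linear axes that start at 0. In the naive state Tgfbr1 runs from 4092 to 4669 CPM in Cre+ and from 2100 to 2990 CPM in Cre-, and the demyelination groups are lowest for Tgfbr1, Tgfbr2, Smad3, Ski and Skil.

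MicroRNAs, the products that depend on Dicer1, pair through their seed, bases 2 to 8, with sites in 3′ UTRs. Sites of 7 bases complementary to the seeds of 9 microRNAs known in microglia and macrophages were searched in the longest annotated 3′ UTR of each gene (GENCODE M21, GRCm38). The 9 microRNAs hold 8 different seeds, since miR-17-5p and miR-106b-5p share one. The search found 25 sites in 9 of the 10 genes, and none in the 135 bases of the Tgfb1 3′ UTR. How many 3′ UTRs hold a site for any of the 8 seeds was not computed, so these counts have no background beside them. The sites of Tgfbr1 and Smad6 are shown because these were the 2 genes with the largest naive rises among the calls kept in all alternatives. In the microRNAs (mature sequences from RefSeq, GRCm38.p6) capitals mark the seed, and in the sites they mark its complement.
let-7a-5p: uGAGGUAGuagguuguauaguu
Tgfbr1 site for let-7a-5p, chr4:47410843-47410849, plus strand: gctggttgttCTACCTCactgagagaa
miR-21a-5p: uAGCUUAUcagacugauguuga
Tgfbr1 site for miR-21a-5p, chr4:47412735-47412741, plus strand: acctgcttaaATAAGCTcttgtgctat
miR-142a-3p: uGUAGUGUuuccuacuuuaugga
Tgfbr1 site for miR-142a-3p, chr4:47414874-47414880, plus strand: tttcatcctaACACTACagtagaaaat
miR-17-5p: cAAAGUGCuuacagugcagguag
miR-106b-5p: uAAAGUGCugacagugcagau
Smad6 site for miR-17-5p and miR-106b-5p, chr9:63953285-63953291, minus strand: caagaaagacGCACTTTggcttgtaat

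The Tgfbr1 3′ UTR of 4154 bases held 1 site each for let-7a-5p, miR-21a-5p and miR-142a-3p, and the let-7a-5p and miR-142a-3p sites are followed by an A, the stronger site type. A let-7a-5p site is present in 9.18% of all 20522 3′ UTRs searched and in 23.5% of the 1559 of like length, a miR-142a-3p site in 6.12% and 15.4%, and a miR-21a-5p site in 7.3% and 21%. The Smad6 3′ UTR of 448 bases held the shared miR-17-5p and miR-106b-5p site, present in 12% of all 3′ UTRs and in 3.71% of the 2132 of like length. Genes without a naive call held sites as well: Smad2 had 5, Smad3 had 3 and Skil had 2. Tgfb1, with no site for these microRNAs, was among the 7 called higher. A match of letters is a description and not a measured binding site.

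SMAD complexes bind DNA at CAGAC and at the palindrome GTCTAGAC. Both, and the PU.1 motif GAGGAAGT, were searched on both strands from 250 bases before to 50 after the annotated starts of 7 RefSeq promoters of Tgfb1, Tgfbr1, Tgfbr2, Smad3, Smad6 and Ski (Tgfbr1 has 2). Neither of the SMAD motifs contains the other. The promoters of Smad2, Smad4, Smad7 and Skil were not searched. Among the 7 the palindrome occurred once, in the Smad6 promoter, and it is present in 0.213% of 32851 promoters of this length. CAGAC is present in 49.6% of them and occurred once in Tgfbr2 and once in the second Tgfbr1 promoter, and GAGGAAGT, present in 3.2%, in none of the 7. The Smad6 promoter (GRCm38.p6, RefSeq) is shown because it is the one that holds the palindrome, which is in capitals.
Smad6 promoter, chr9:64022010-64022309, minus strand: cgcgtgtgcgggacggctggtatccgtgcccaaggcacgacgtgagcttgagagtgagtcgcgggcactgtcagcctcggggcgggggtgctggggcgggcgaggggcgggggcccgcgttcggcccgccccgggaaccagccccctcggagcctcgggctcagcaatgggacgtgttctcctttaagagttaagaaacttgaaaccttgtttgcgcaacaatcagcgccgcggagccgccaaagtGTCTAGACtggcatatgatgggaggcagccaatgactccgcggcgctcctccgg

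In demyelination 0 of the 10 genes were called between genotypes, beside 9.17% of all genes (1612, and 81 without the libraries of low Cx3cr1). At an unadjusted p under 0.05 there were 2 of 10, beside 22.8% of all genes, and DESeq2 called 1. The members' median difference was -0.01, equal to the median of all genes, and 5 of 10 were positive. Tgfbr1 was 1432, 1387 and 1489 CPM in Cre- and 1991, 1586 and 1758 CPM in Cre+, so the groups did not overlap, with a log2 difference of 0.31 (SE 0.15, adjusted p = 0.208). Ski came nearest to the threshold. It was 82.6, 78.35 and 84.99 CPM in Cre- against 108.6, 88.06 and 103.6 CPM in Cre+, a difference of 0.29 (SE 0.10, adjusted p = 0.0598). Ski was called in 6 of 14 alternative analyses, among them DESeq2 (adjusted p = 0.00514) and the fit without Cre+ replicate 2 (0.0119). Its difference was 0.15 without the 2 demyelination libraries of low Cx3cr1, which leaves 1 Cre+ library.

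The change in the genotype difference from naive to demyelination was tested as an interaction, which uses the same naive libraries as the comparison above. Of the 10 genes, 3 were called, all with a lower Cre+ minus Cre- difference in demyelination, beside 15.8% of all genes in either direction. The median of the 10 was -0.36, beside 0.00 for all genes. For Tgfb1 the interaction was -0.48 (SE 0.15, adjusted p = 0.0271), from 0.62 in naive to 0.14 in demyelination. For Smad6 it was -1.73 (SE 0.41, adjusted p = 0.00556), as Smad6 went from 1.46 to -0.27, with demyelination values of 6.084, 5.316 and 3.169 CPM in Cre- and 2.79, 3.49 and 5.885 CPM in Cre+. For Smad7 it was -0.81 (SE 0.21, adjusted p = 0.0115), with demyelination values of 29.16, 28.9 and 24.07 CPM in Cre- and 22.9, 16.98 and 26.29 CPM in Cre+. The demyelination groups of Smad6 and Smad7 overlapped. Without the 3 libraries of low Cx3cr1 the interactions were -2.0 for Smad6, -1.16 for Smad7 and -0.48 for Tgfb1. That fit leaves 1 demyelination Cre+ library, replicate 2, which had the lowest Smad7 of its group (16.98 CPM). The Tgfb1 interaction was lost in 8 of 12 fits that left out 1 library, with adjusted p between 0.0501 and 0.0787 in those 8. Summed neutrophil markers were 1337 to 1686 CPM in demyelination Cre+ and 216.9 to 899.9 CPM in demyelination Cre- libraries (0 of 9 called). In the same order, monocyte sums were 468.7 to 771.7 and 218.6 to 353.4 CPM (1 of 8 higher, 3 lower, median difference -1.26). These sums include Fn1, at means of 398 and 125 CPM, which is also on the list of response genes below. Border-associated macrophage sums were 153.4 to 166.7 and 210.6 to 246.4 CPM (2 of 9 lower). Mural sums were 85.18 to 131.0 and 52.56 to 69.44 CPM (1 of 9 higher, median difference 0.15). Endothelial sums were 1126 to 1231 and 953.0 to 1013 CPM (1 of 11 tested higher). No marker of these lists was at 0 in all libraries of either group. The part of these cells in the values above was not tested.

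In remyelination with tamoxifen at the start, 0 of 10 genes were called, beside 0.0341% of all genes (6 genes). One of the 10 had an unadjusted p under 0.05, beside 9.43% of all genes, and DESeq2 also called 0. That gene was Smad7, with 76.16, 81.43 and 78.85 CPM in Cre- and 58.73, 69.48 and 61.13 CPM in Cre+. The Smad7 groups did not overlap, and the log2 difference was -0.32 (SE 0.15, adjusted p = 0.497). Tgfbr1 was 2345, 2198 and 2547 CPM in Cre- and 1859, 2265 and 2850 CPM in Cre+, which overlapped, with a difference of -0.02 (95% interval -0.33 to 0.29, adjusted p = 0.984).

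In remyelination with tamoxifen at the peak, Tgfbr1 alone of the 10 was called, beside 11% of all genes. It was 2548, 2091 and 2879 CPM in Cre- and 3717, 4956 and 3821 CPM in Cre+, and the groups did not overlap. The rise was 1.66-fold (log2 0.73, SE 0.15, adjusted p = 0.00174), and it was called in every alternative run. Markers of other cells moved with genotype at the peak. Neutrophil markers summed to 457.7, 442.5 and 5183 CPM in Cre+ replicates 1, 2 and 3 and to 173.6 to 283.6 CPM in Cre- libraries (2 of 9 called higher), and monocyte markers to 98.27, 115.7 and 674.4 CPM against 77.82 to 94.30 CPM (1 of 8 higher). Astrocyte markers summed to between 352.0 and 466.3 CPM in the Cre+ libraries, below the range of 621.9 to 870.4 CPM in the Cre- libraries (2 of 9 lower), and mural cell markers to 13.23 to 39.65 and 31.86 to 86.85 CPM (4 of 9 lower). No marker of these lists was at 0 in all libraries of a group, and their part in the Tgfbr1 rise was not tested. Smad7 was 68.07, 66.39 and 72.44 CPM in Cre- and 63.69, 43.87 and 55.95 CPM in Cre+, again without overlap, but its difference of -0.34 (SE 0.15, adjusted p = 0.149) was not called. Smad2 differed by 0.19 (95% interval -0.01 to 0.39, adjusted p = 0.199).

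The genotype difference of Tgfbr1 was larger with tamoxifen at the peak than at the start, by 0.76 on the log2 scale (SE 0.21, adjusted p = 0.0384), and Tgfbr1 was the only one of the 10 called in that interaction, beside 3.77% of all genes. The call was lost with a replicate block (0.77, adjusted p = 0.0515) and in 8 of 12 fits without 1 library, with adjusted p between 0.0572 and 0.137 in those 8. In the interaction of start remyelination against demyelination 0 of the 10 were called, beside 3.74% of all genes; 2 of 10 had an unadjusted p under 0.05 and DESeq2 called 1, Ski (-0.44, adjusted p = 0.0170).

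**Figure D3:**
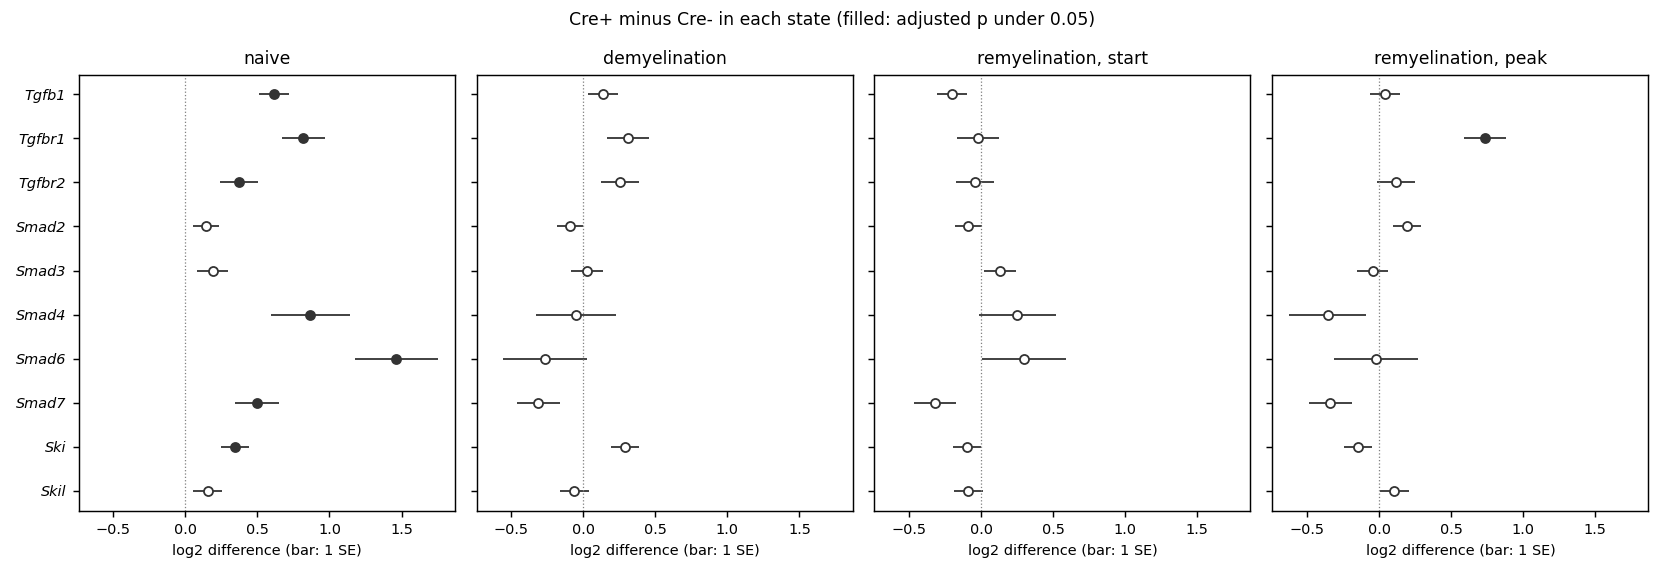
Log2 difference of Cre+ minus Cre- for each gene in the 4 states, with 1 SE as the bar and filled points for adjusted p under 0.05. In naive mice 7 of 10 points are filled and all 10 lie right of 0, and with tamoxifen at the peak only Tgfbr1 (0.73) is filled.

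Tgfbr1, Smad2, Smad3, Ski and Skil were lower in demyelination than in naive microglia of both genotypes. In Cre- mice 5 of the 10 genes were called lower and 1 higher, beside 35.9% of all genes in either direction, and the median of the 10 was -0.29 beside 0.04 for all genes. In Cre+ mice 7 were called lower and 0 higher, beside 52.2%, with a median of -0.51 beside 0.01. Both comparisons have their own naive and demyelination libraries, within 1 fit. The state difference need not be the same in the 2 genotypes, and for 3 of the 10 genes it was called different in the interaction above.

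Smad3, a receptor-activated SMAD that binds DNA, had the largest fall of the 10 in Cre-. It went from 83.32, 72.63 and 74.73 CPM in naive to 40.39, 36.82 and 45.26 CPM in demyelination Cre- mice, with no overlap, and fell by 0.91 on the log2 scale (SE 0.11, adjusted p = 2.72e-07). In Cre+ it went from 78.62, 91.89 and 92.15 to 44.44, 38.82 and 41.63 CPM and fell by 1.07 (SE 0.11, adjusted p = 6.89e-09). Tgfbr1 fell by 0.80 (SE 0.15, adjusted p = 0.000107) in Cre- and by 1.31 (SE 0.15, adjusted p = 4.94e-08) in Cre+, and the 2 states overlapped in neither genotype. Tgfbr2 fell by 0.42 (SE 0.13, adjusted p = 0.00955) in Cre+. In Cre- its difference was -0.30 (adjusted p = 0.0756).

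Ski fell by 0.45 (adjusted p = 0.000582) in Cre- and by 0.50 (adjusted p = 7.78e-05) in Cre+. Skil fell by 0.53 (adjusted p = 0.000173) and by 0.75 (adjusted p = 8.40e-07). Smad2 fell by 0.28 (adjusted p = 0.0199) in Cre- and by 0.51 (adjusted p = 3.86e-05) in Cre+. In each of these 3 genes every demyelination library lay below every naive library of its genotype. The Smad2 call in Cre- was lost without naive Cre- replicate 3 (0.0755), demyelination Cre- replicate 2 (0.0553) or replicate 3 (0.0720), and the Tgfbr2 call in Cre+ without naive Cre+ replicate 3 (0.0509) or demyelination Cre+ replicate 2 (0.0729).

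Smad7 was the one member called higher in demyelination, in Cre- mice. It went from 24.48, 15.9 and 17.09 CPM to 29.16, 28.9 and 24.07 CPM, overlapping by 1 library, a rise of 0.53 (SE 0.15, adjusted p = 0.00799) that was lost without naive Cre- replicate 2 (0.0644) or replicate 3 (0.0556). In Cre+ the Smad7 difference was -0.28 (SE 0.15, adjusted p = 0.119). It was -0.65 without the 3 libraries of low Cx3cr1, which leaves 1 demyelination Cre+ library. Smad6 fell by 1.12 in Cre+ (SE 0.28, adjusted p = 0.00164), where naive and demyelination libraries did not overlap. In Cre- the Smad6 difference was 0.61 (95% interval -0.02 to 1.23, adjusted p = 0.112). Tgfb1 was not called in either genotype, at 0.26 (adjusted p = 0.0558) in Cre- and -0.22 (adjusted p = 0.0766) in Cre+, nor was Smad4, at 0.50 (adjusted p = 0.185) and -0.42 (adjusted p = 0.210).

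Markers of other cells moved with demyelination. The 9 markers of border-associated macrophages summed to 16.47 to 30.90 CPM in naive and 153.4 to 246.4 CPM in demyelination libraries, and 9 of 9 were called higher in each genotype. The 8 monocyte markers summed to 24.34 to 83.26 CPM in naive and 218.6 to 771.7 CPM in demyelination libraries, with 7 of 8 higher in Cre- and 4 of 8 in Cre+. No marker of either list was at 0 in all libraries of a group. The microglial markers summed to 62643 CPM or more in naive and to 41758 to 49604 CPM in demyelination libraries. The part of these cells in the falls above was not tested.

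Libraries of start remyelination stood above those of demyelination for most of the 10 genes. In Cre- 8 were called higher and 0 lower, beside 54.7% of all genes, with a median of 0.75 beside 0.06 for all genes. In Cre+ 8 were called higher and 0 lower, beside 63.3%, with a median of 0.62 beside 0.12. These comparisons also cross library sets. Border-associated macrophage markers summed to 395.5 to 452.6 CPM in start Cre- and 305.7 to 536.3 CPM in start Cre+, above the demyelination sums of 210.6 to 246.4 and 153.4 to 166.7 CPM. Astrocyte sums were 439.4 to 801.2 CPM in start Cre- and 547.1 to 582.5 CPM in start Cre+, above 297.7 to 411.8 and 242.7 to 317.2 CPM in demyelination, and endothelial sums were lower, 507.1 to 598.4 and 529.9 to 648.6 CPM against 953.0 to 1013 and 1126 to 1231 CPM. The part of these cells in the member differences was not tested. In addition, a correction for GC content and length moved several members, as given beside them here.

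The effectors Smad3 and Smad4 and the inhibitor Smad7 differed most. Smad3 was 120, 103.7 and 141.3 CPM in start Cre- and 136.1, 130.4 and 133.3 CPM in start Cre+, and rose by 1.57 (SE 0.11, adjusted p = 2.49e-11) and 1.68 (SE 0.11, adjusted p = 1.41e-12). Smad4 was 64.09, 48.89 and 45.97 CPM in start Cre- and 42.54, 75.25 and 71.05 CPM in start Cre+, and rose by 1.55 (SE 0.28, adjusted p = 0.000113) and 1.85 (SE 0.28, adjusted p = 1.12e-05). Smad7 rose by 1.53 (SE 0.15, adjusted p = 6.75e-09) in Cre- and 1.52 (SE 0.15, adjusted p = 3.67e-09) in Cre+. In all 3 genes the start libraries lay above every demyelination library of their genotype. Skil rose by 0.83 (adjusted p = 1.84e-07) and 0.80 (adjusted p = 1.91e-07), and Tgfb1 by 0.77 (adjusted p = 7.13e-07) and 0.43 (adjusted p = 0.000813). These rises of Smad3, Smad4, Smad7, Skil and Tgfb1 were called in every alternative run.

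For the receptors, the Tgfbr1 call in Cre- held in every alternative and the other calls did not. Tgfbr1 rose by 0.72 (SE 0.15, adjusted p = 0.000200) in Cre- and by 0.39 (SE 0.15, adjusted p = 0.0243) in Cre+, where the groups overlapped. With the GC and length correction the Tgfbr1 difference in Cre+ was 0.12 (adjusted p = 0.439), and without start Cre+ replicate 3 it was 0.20 (adjusted p = 0.251) and without demyelination Cre+ replicate 2 it was 0.33 (adjusted p = 0.0833). Tgfbr2 rose by 0.69 (adjusted p = 9.10e-05) in Cre- and 0.39 (adjusted p = 0.0129) in Cre+, and was 0.16 (adjusted p = 0.260) and -0.20 (adjusted p = 0.139) with that correction. The Tgfbr2 call in Cre+ was also lost without demyelination Cre+ replicate 2 (0.0636) or start Cre+ replicate 2 (0.0695). Ski rose by 0.52 (adjusted p = 6.77e-05) in Cre- and was 0.07 (adjusted p = 0.629) with the correction, and in Cre+ its difference of 0.13 (adjusted p = 0.254) turned to -0.39 (adjusted p = 0.00247). Smad2, at -0.16 in both genotypes and not called, was -0.63 and -0.65 and called lower with the correction (adjusted p = 4.16e-06 and 1.39e-06). Smad6 rose by 0.94 (SE 0.29, adjusted p = 0.00665) in Cre+, from 2.79, 3.49 and 5.885 to 7.103, 7.479 and 8.642 CPM, and differed by 0.38 (adjusted p = 0.284) in Cre-.

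**Figure D4:**
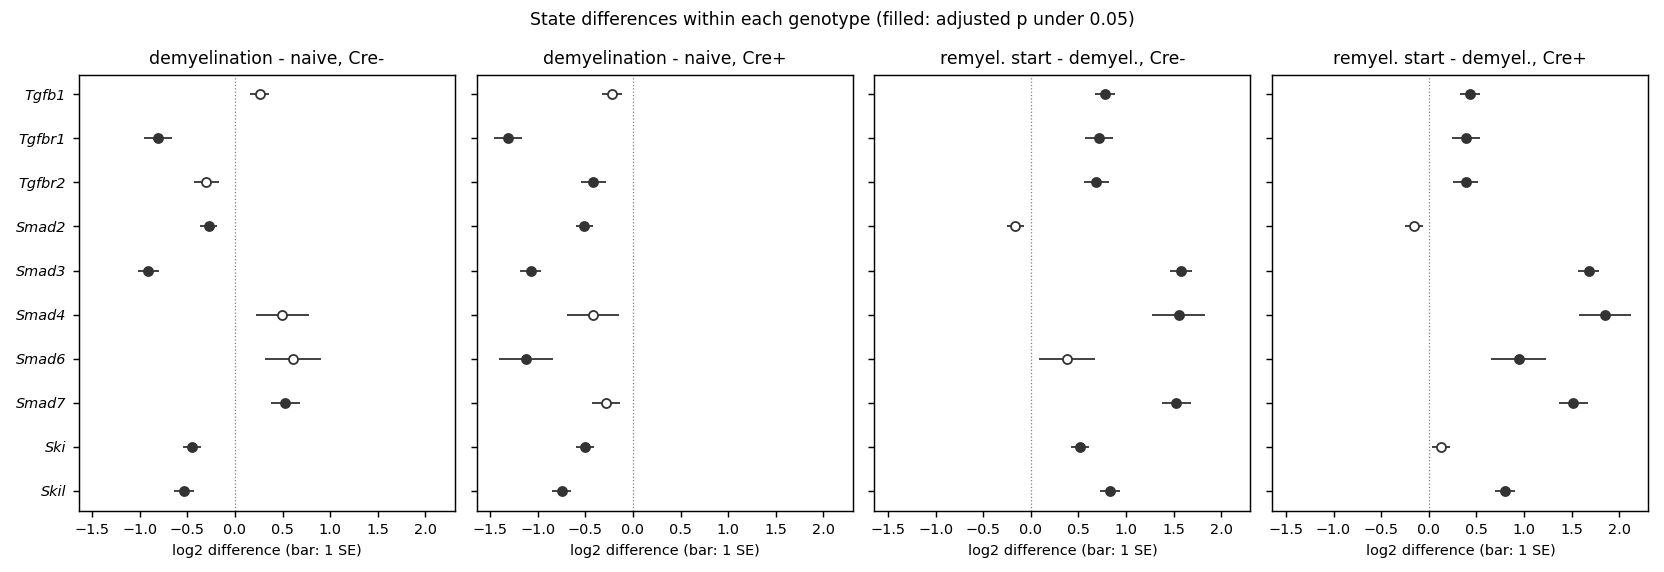
Log2 differences between states within each genotype, with 1 SE as the bar and filled points for adjusted p under 0.05. Smad3 is lower in demyelination than in naive (-0.91 in Cre- and -1.07 in Cre+) and higher in start remyelination than in demyelination (1.57 and 1.68).

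Between peak and start remyelination 0 of the 10 genes were called in Cre- mice, beside 0.546% of all genes, with 0 of 10 at an unadjusted p under 0.05 and 0 by DESeq2. In Cre+ mice 2 were higher with tamoxifen at the peak, beside 13.6% of all genes. Tgfbr1 rose by 0.84 (SE 0.15, adjusted p = 0.000428), from 1859, 2265 and 2850 CPM to 3717, 4956 and 3821 CPM, and the groups did not overlap. Smad2 rose by 0.30 (SE 0.09, adjusted p = 0.0359), from 55.52, 53.8 and 63.77 CPM to 78.02, 68.38 and 66.11 CPM. The Smad2 call was lost without start Cre+ replicate 1 (0.131) or replicate 2 (0.166) and without peak Cre+ replicate 1 (0.173) or replicate 2 (0.0617).

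Across all 8 groups the order of levels differed by gene. Tgfbr1 was highest in naive Cre+ (4421 ± 297 CPM, SD, n = 3) and peak Cre+ (4165 ± 687 CPM), whose ranges overlapped, and lowest in demyelination Cre- (1436 ± 51.1 CPM), with the other 5 groups between 1778 and 2507 CPM. Ski also had its highest mean in naive Cre+ (142.0 ± 5.30 CPM) and its lowest in demyelination Cre- (82.0 ± 3.36 CPM). Smad3, Smad4, Smad7 and Tgfb1 had their 4 highest group means in the 4 remyelination groups, and within those 4 groups neighbours in the order overlapped, apart from Smad7 in start Cre- (78.8 ± 2.64 CPM), which lay above all libraries of the others. Tgfbr2 had its lowest means in demyelination Cre- (535 ± 14.3 CPM) and Cre+ (638 ± 87.1 CPM) and its highest in peak Cre+ (979 ± 135 CPM), which overlapped with the other 3 remyelination groups. Skil was lowest in demyelination Cre+ (209 ± 17.4 CPM) and Cre- (219 ± 4.82 CPM), which overlapped, and highest in start Cre- (389 ± 11.8 CPM). Smad6 had its lowest mean in naive Cre- (3.27 ± 1.70 CPM) and its highest in naive Cre+ (8.75 ± 1.49 CPM). Smad2 had its highest means in naive Cre+ (91.6 ± 0.410 CPM) and naive Cre- (83.0 ± 5.01 CPM) and its lowest in start Cre+ (57.7 ± 5.33 CPM).

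Over the log2 CPM of 24 libraries, which share state, depth and library set, the members most alike were Smad4 and Smad7 (Pearson r 0.94), Tgfb1 and Smad4 (0.92) and Smad3 and Skil (0.92), and the least alike were Smad2 and Smad7 (-0.59). Among 10555 other genes with a mean log2 CPM of at least 2, the 3 nearest to Tgfbr1 were Rab3gap1 (0.97), Vipr1 (0.96) and Gcnt1 (0.96). Those nearest to Smad3 were Abl1 (0.99), Zfp862-ps (0.98) and Bicral (0.98). Those nearest to Smad4 were Gna12 (0.99), Atxn2 (0.98) and Furin (0.98). Tgfb1 was nearest to Epn1 (0.97), Prrc2a (0.97) and Larp1 (0.96), and Tgfbr2 to Spata13 (0.97), Pacs1 (0.95) and Flii (0.95). The nearest to Smad7 were Bahd1 (0.97), Clip2 (0.97) and Mprip (0.97), and to Skil Tug1 (0.98), Lats2 (0.97) and Cep170 (0.97). Smad6 was nearest to Mark3 (0.97), 2510039O18Rik (0.96) and Ctdp1 (0.95), and Smad2 to Gabpb1 (0.94), Tspyl1 (0.94) and Cse1l (0.93). Ski had the weakest partners, Gm6583 (0.88), Gm47097 (0.85) and Spry1 (0.84).

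The rest of the pathway was followed with 6 gene lists. In naive mice, ligand and activation genes other than Tgfb1 were called higher in 3 of 14 tested and lower in 1, with a median of -0.01, equal to that of all genes. The counts of this and the next lists stand beside 28.3% of all genes called, and the share of the ligand list is near that. Itgav and Itgb5, subunits of integrins that release TGF-beta from its latent complex, rose by 1.08 (164 ± 25.8 to 346 ± 27.0 CPM, adjusted p = 8.53e-06) and 2.32 (438 ± 237 to 2177 ± 960 CPM, adjusted p = 0.00175), and Mmp14, a membrane protease, fell by 0.82 (adjusted p = 0.000945). Other receptors of the family were higher in 5 of 11 and lower in 1, with a median of 0.42. The activin receptors Acvr2a and Acvr2b rose by 1.33 (adjusted p = 2.86e-06) and 2.24 (adjusted p = 1.10e-05), while Acvrl1, a type I receptor known from endothelium, fell by 2.04 from 47.0 ± 3.24 to 11.3 ± 3.99 CPM (adjusted p = 1.60e-07). SMAD partners were higher in 9 of 27 and lower in 2, with a median of 0.18. Those with the smallest p were Smurf2, a ubiquitin ligase that binds SMAD7 (0.95, adjusted p = 7.94e-06), Ppm1a, a phosphatase of SMAD2 and SMAD3 (0.82, adjusted p = 3.09e-05), and the co-activator Ep300 (0.57, adjusted p = 5.33e-05). Kinases that act beside the SMADs were higher in 2 of 9, Map3k7 (0.87, adjusted p = 0.000523) and Mapk14 (0.52, adjusted p = 0.00294).

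Of 17 genes known to respond to TGF-beta, 1 was called higher and 3 lower in naive Cre+ mice, with a median of -0.11, a share below the 28.3% of all genes called. Tgfbi, which TGF-beta induces, rose by 1.02 (adjusted p = 6.39e-05), Id2 fell by 1.36 (82.4 ± 9.29 to 32.2 ± 1.12 CPM, adjusted p = 2.70e-05) and Junb fell by 0.88 (adjusted p = 0.000560). Of 18 microglial genes known to depend on TGF-beta, 2 were called higher and 3 lower, with a median of -0.00, a share near that of all genes. Sparc rose by 0.76 (adjusted p = 0.000103), Fcrls fell by 1.26 (adjusted p = 6.83e-06) and Siglech fell by 0.42 (adjusted p = 0.00474), which was lost without naive Cre- replicate 2 (0.0540). Whether either list differs from the receptors was not tested.

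In the other genotype comparisons fewer genes of the 6 lists were called, and fewer of all genes as well. Of all genes, 9.17% were called in demyelination, 0.0341% with tamoxifen at the start and 11% at the peak, beside 28.3% in naive. Of 17 response genes 3 were called higher and 0 lower in demyelination. These were Fn1 (1.68, adjusted p = 0.0122), which is also on the monocyte list, Cdkn2b (1.14, adjusted p = 0.0411) and Spsb1 (0.35, adjusted p = 0.0439). Of 27 SMAD partners 3 were called higher and 1 lower in demyelination, and of 18 microglial genes also 3 higher and 1 lower. In demyelination Mmp14 fell by 0.87 (adjusted p = 0.00281) and Acvr2a rose by 0.59 (adjusted p = 0.0273). Runx3, a SMAD partner of low level, rose by 2.30 (0.953 ± 0.211 to 4.74 ± 2.92 CPM, adjusted p = 0.00389). Mapk14 fell by 0.47 (adjusted p = 0.0204), and Sparc rose by 0.91 (adjusted p = 0.000139), Olfml3 by 0.61 (adjusted p = 0.00406) and Gas6 by 0.60 (adjusted p = 0.00479). None of these 7 was called without the 2 demyelination libraries of low Cx3cr1, which leaves 1 Cre+ library. With tamoxifen at the start 0 genes of the 6 lists were called by edgeR, and the smallest p was that of Junb (-0.67, adjusted p = 0.224), which DESeq2 called (0.0293). With tamoxifen at the peak Acvr2a rose by 1.36 (29.7 ± 3.39 to 76.3 ± 17.8 CPM, adjusted p = 1.20e-05), Acvr2b by 1.2 (adjusted p = 0.00770, 0.0653 with a replicate block) and the co-receptor Eng by 0.43 (adjusted p = 0.0182). Of the 11 other receptors 3 were called higher and 1 lower. Of 17 response genes 3 were called higher and 2 lower, with a median of -0.05. The 3 were the cell cycle inhibitor Cdkn1a (2.35, 9.46 ± 1.34 to 48.6 ± 8.51 CPM, adjusted p = 7.46e-06), Klf10 (0.81, adjusted p = 0.00190) and Tgfbi (0.59, adjusted p = 0.0214). Of 27 SMAD partners 2 were higher and 2 lower, and the feedback inhibitor Pmepa1 fell by 0.96 (adjusted p = 0.0298, 0.140 with a replicate block). Of 18 microglial genes Sparc was called higher (0.72, adjusted p = 0.000557) and Siglech lower (-0.41, adjusted p = 0.0154).

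In demyelination against naive most response genes were higher and most microglial genes lower. Of 17 response genes, 10 were called higher and 2 lower in Cre- (median 1.23) and 11 higher and 3 lower in Cre+ (median 1.66), beside 35.9% and 52.2% of all genes called in either direction and medians of 0.04 and 0.01. Bhlhe40 rose by 4.99 in Cre- (2.69 ± 0.0978 to 85.6 ± 12.2 CPM, adjusted p = 6.25e-12) and by 5.52 in Cre+ (adjusted p = 5.81e-13), and Id2 by 2.71 (adjusted p = 5.94e-10) and 3.88 (adjusted p = 1.80e-12). Fn1, a matrix gene that is also on the monocyte list, rose by 7.77 (adjusted p = 1.81e-09) in Cre+. Of 18 microglial genes, 1 was called higher and 15 lower in Cre- (median -0.67) and 3 higher and 13 lower in Cre+ (median -0.71), beside the same shares. P2ry13 fell by 1.65 (adjusted p = 6.19e-11) in Cre- and 1.56 (adjusted p = 5.71e-11) in Cre+, Tmem119 by 1.70 (adjusted p = 3.78e-10) in Cre-, and Sall1, a transcription factor of microglial identity, by 1.09 (adjusted p = 2.89e-10) in Cre+. The inhibitory pseudoreceptor Bambi rose by 3.45 (adjusted p = 1.46e-09) in Cre- and 2.73 (adjusted p = 1.39e-08) in Cre+. The macrophage and monocyte sums given above rose in the same comparisons, and Fn1 is part of the monocyte sum. The part of these cells in the rises and falls of the list genes was not tested.

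**Figure D5:**
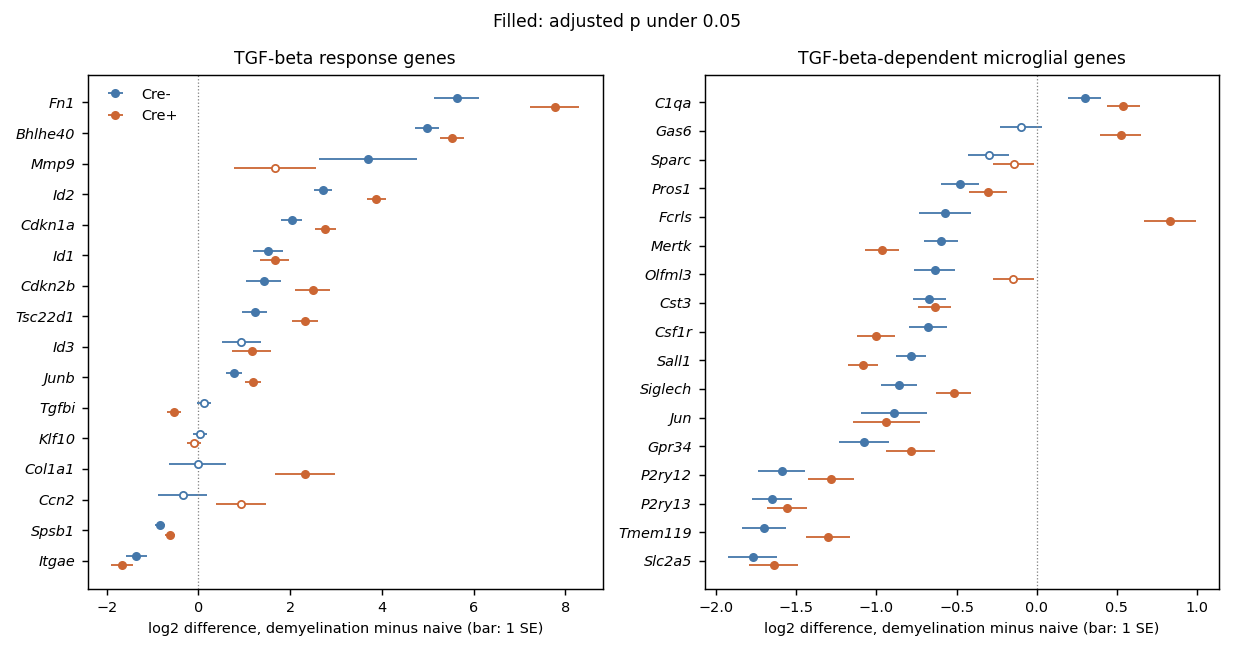
Log2 difference of demyelination minus naive for 16 of the 17 TGF-beta response genes and 17 of the 18 TGF-beta-dependent microglial genes, with 1 SE as the bar, Cre- and Cre+ side by side and filled points for adjusted p under 0.05. Response genes reach 7.77 (Fn1, Cre+), and P2ry13 lies at -1.65 in Cre- and -1.56 in Cre+.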

How the data were processed

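RNA-seq of 24 libraries of sorted microglia was deposited as a table of gene counts. The authors trimmed reads with Trimmomatic 0.36, aligned them to GRCm38 with STAR 2.5.2b, took gene counts from featureCounts (Subread 1.5.2) and used DESeq2, per the submitters' processing notes. Strand setting, treatment of multimapped reads and annotation release were not given in the sources used here. Of 49315 gene identifiers, 49056 were matched to symbols in GENCODE M21 (259 were not), and its exons gave the lengths.

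Counts were scaled by TMM and tested with edgeR 4.0.16 (R 4.3.3, limma 3.58.1): a quasi-likelihood fit with 8 group means and 16 residual degrees of freedom, filterByExpr, 13 comparisons, two-sided p-values with Benjamini-Hochberg adjustment over 17579 genes each, threshold 0.05. SD and n refer to 3 libraries. The code was tested on simulated data. No pair of replicates was alike within sampling noise (smallest chi-square per degree of freedom 4.52). Totals ranged from 8.87 to 44.53 M counts, and Smad6, the lowest member, had 67 counts or more in every library.

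The alternatives were DESeq2 1.42.0, RLE size factors, no filter on low counts, only the groups compared, each library left out, a replicate block, a correction for GC content and length, both together, and leaving out 3 libraries of low Cx3cr1. Same-numbered libraries deviated together weakly in peak remyelination between genotypes (r 0.16 to 0.23) and between naive and demyelination in Cre+ (r 0.26 to 0.32). With 3 libraries a group this does not establish pairs. The main tests used no pairing, and the replicate block was an alternative run on all groups. In the other groups the shared number was not matched throughout by shared deviations.

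The 10 members, the gene lists and the alternatives were chosen with earlier results of these data known. Named list genes were the called genes of smallest p, up to 3 per list and comparison, or the gene of smallest p where none was called; some genes of the lists are not reported here by name. Genes of like pattern were the 3 with the highest Pearson correlation. Seed sites were searched in the longest 3′ UTR of each gene in GENCODE M21, and UTRs of like length are those from 0.8 to 1.25 times as long. Members on chromosome 18 are described without sequences.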

Additional observations from a re-analysis of the deposited data

Results flagged for a closer look

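The Cre+ minus Cre- difference changed from naive to demyelination for 3 genes in a test of the interaction, by -0.48 on the log2 scale for Tgfb1 (SE 0.15, adjusted p = 0.0271), by -1.73 for Smad6 (SE 0.41, adjusted p = 0.00556) and by -0.81 for Smad7 (SE 0.21, adjusted p = 0.0115), each with 3 libraries in each of 4 groups. The genotype difference of Tgfbr1 was larger with tamoxifen at the peak than at the start by 0.76 (SE 0.21, adjusted p = 0.0384). The interaction calls of Tgfb1 and Tgfbr1 were each lost in 8 of 12 fits that left out 1 library, and those of Smad6 and Smad7 in 0 of 12. Groups of 3 libraries are too small for the test of single outlying samples, so no library was singled out by it.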

How the results depend on the processing

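Of 130 results for members (10 genes in 13 comparisons), 43 were called, 29 of these were called in every alternative run and 14 lost the call in at least 1. Of the results not called, 12 gained a call and 27 changed sign in at least 1 alternative. The difference of start remyelination minus demyelination in Cre+ turned negative with the GC and length correction for Tgfbr2 (-0.20, and -0.19 with the replicate block added) and for Ski (-0.39 in both fits).

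The number of members called between genotypes in naive mice was 4 with the replicate block and the correction together, and 3 to 6 when each library was left out. In demyelination it was 1 with DESeq2, RLE size factors, the correction and the correction with the replicate block, 2 with no filter on low counts, and 0 to 1 when each library was left out. The interaction of start remyelination and demyelination gave 1 member with DESeq2 and 0 to 1 when each library was left out. The interaction of peak and start remyelination gave 0 members with only the groups compared, 0 with the replicate block, and 0 to 1 when each library was left out. Peak against start in Cre+ gave 1 member with no filter, 1 with only the groups compared, and 1 to 2 when each library was left out. Apart from those given with the results, the replicate block ended the naive call of Smad4 (0.85, adjusted p = 0.114), where no pairing is known, and no other call of a member. The causes were not tested. Counts of called genes over the whole table, which serve as the background of the members, moved most in start remyelination, from 6 to 76 with DESeq2, 81 with no filter and 40 with only the groups compared. They moved from 657 to 1439 (DESeq2) in the interaction of start remyelination and demyelination, from 662 to 1056 (DESeq2) in that of peak and start, and from 96 to 217 (DESeq2) and 244 (no filter) between peak and start in Cre-. Depth limits Smad6 most, with as few as 67 counts in a library.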

Other observations

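In start remyelination against demyelination, 10 of the 17 response genes were called lower in each genotype, with 4 higher in Cre- (median -0.64, beside 0.06 for all genes) and 2 higher in Cre+ (median -0.89, beside 0.12). Ligand and activation genes were called higher in 7 of 14 in Cre- and 10 of 14 in Cre+, and lower in 1 in each, beside 54.7% and 63.3% of all genes called in either direction. Fcrls, a microglial gene known to depend on TGF-beta, differed between demyelination and naive by -0.57 in Cre- and by 0.83 in Cre+. The state and the library set cannot be told apart in the remyelination values.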
